A study of Mus musculus with 6 samples.

Results

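A list of 57 genes of mouse chromosome 16 was followed in E0771 cells and in their metastatic derivative, of 18193 genes that the array represents by probe sets with 1 gene symbol. The genes had been listed with earlier results of this comparison known, because genes of that chromosome were lower together in the derivative. Their differences between the cell populations are therefore a description and carry no test. Each gene was read from its brightest probe set (by mean log2(signal + 50)), provided that the signal averaged 100 or more over the 6 arrays. By this rule 53 genes had a value. App and Tiam1 had a mean signal below 100, and Btg3 and Ube2l3 had no probe set with their symbol alone. Ifngr2 (mean signal 299) was the listed gene nearest the bound, and the chromosome 16 gene just outside it was Dop1b at 99.7.

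E0771 is a mammary tumour line of C57BL/6 mice. The control group was the unselected parental line, and the other group, E0771-HML2, was a second-generation population obtained by repeated passage from the mammary fat pad to lung metastases in mice of that strain. Each group had 3 cultures, called biological replicates in the labels, with 1 Mouse Genome 430 2.0 array per culture, and every culture had spent 3 days in 10% serum. Both groups are thus cultured cells and carry no engineered allele that the labels name. The labels do not say whether the HML2 cultures trace to different mice, so the spread measured is that between these cultures.

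Mouse chromosome 16 is a mosaic of blocks whose gene order is kept on several human chromosomes. Its distal part matches most of human chromosome 21, the chromosome present in an extra copy in Down syndrome, and a proximal block matches the part of human chromosome 22 lost in DiGeorge syndrome. The genes of these blocks have unrelated functions, from endocytosis to protein folding and interferon sensing.

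The deposited signals have a common 2% trimmed mean of 500 on every array, so that a difference is relative to the other transcripts of the same cells. As a sign of RNA quality, signal at the 3' end over that at the 5' end was 1.41 to 1.53 for beta-actin on parental and 1.36 to 1.39 on HML2 arrays. For Gapdh it was 0.799 to 0.803 on parental and 0.77 to 0.816 on HML2 arrays. Of 6 epithelial tumour markers, Krt8 and Epcam reached a mean signal of 100, while Krt18, Krt7, Krt19 and Cdh1 did not. Summed over those markers the signal was 1272 to 1393 on parental and 3787 to 5064 on HML2 arrays. Krt8 made up most of it (1034, 1098 and 1154, then 3592, 4875 and 4057), while Epcam went the other way (134, 108 and 157, then 82.8, 68.9 and 98.9). Summed over 5 fibroblast markers it was 2581 to 4501 and 1192 to 2140. Pdgfra (2500, 1467 and 1896, then 975, 896 and 747) and Pdgfrb (1857, 870 and 1243, then 1025, 393 and 357) made up most of it. Col1a1, Col1a2 and Dcn did not reach a mean signal of 100. Leukocyte (186 to 214 and 119 to 352), endothelial (59.2 to 135 and 105 to 134), lung epithelial (98.8 to 180 and 121 to 206), adipocyte (39.4 to 76.4 and 50.9 to 79.7) and myoepithelial (61.8 to 159 and 87.3 to 98) sums were low. The part of these markers in the differences below was not tested. With 3 arrays a group, precision is limited.

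The listed genes were lower in HML2 cells, with few exceptions. The median log2 difference, HML2 minus parental on the log2(signal + 50) scale, was -0.41 over the 53 genes, and its quartiles were -0.61 and -0.14. The difference was below 0 for 47 genes (88.7%), against 51.7% of the 9361 genes tested (44 of the listed genes with arrays centred on their medians). Among those 9361 genes the median difference was -0.02.

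The shift was of like size on each HML2 array. Measured against the parental mean, the median over the listed genes was -0.39 on HML2 replicate 1, -0.36 on replicate 2 and -0.37 on replicate 3. The genes below 0 numbered 43, 45 and 48 in that order. Each parental array against the mean of the other parental arrays gave medians of -0.02, 0.08 and -0.02. Within a gene these parental differences cancel, so a shift common to all parental arrays could not appear. They give only the size of the spread from array to array. In 38 genes (71.7%) all 3 HML2 arrays lay below the parental mean, against 32.5% of genes on other chromosomes, and in 1 gene, Ube2v2, none did. HML2 replicate 1 held both the lowest single value of the HML2 arrays (Ncbp2, -2.48) and the highest (Ets2, 1.17).

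**Figure D1:**
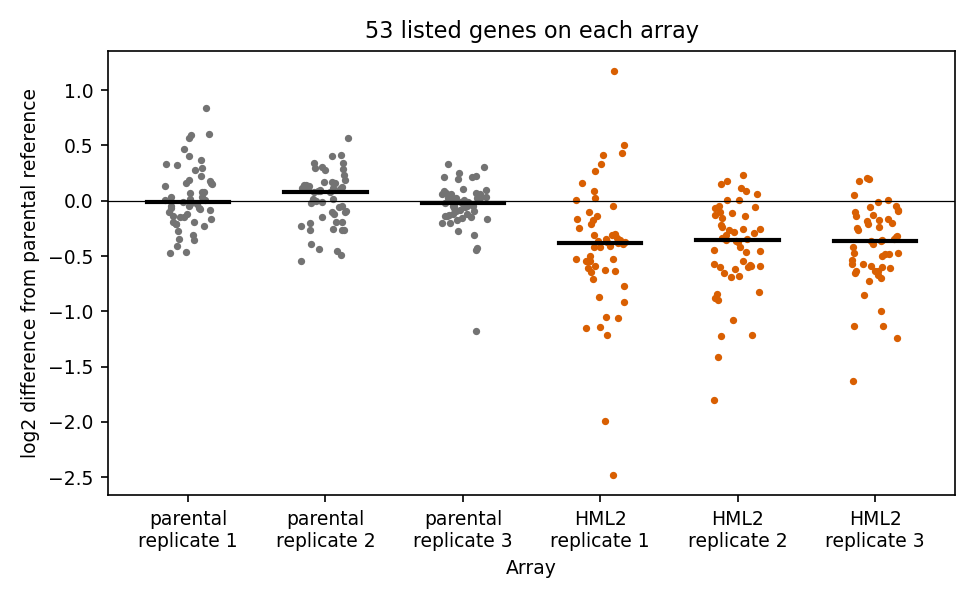
Each point is 1 of the 53 listed genes on 1 array. HML2 arrays are shown against the parental mean and parental arrays against the mean of the other parental arrays (vertical axis, log2(signal + 50) difference), with the median as a bar. The HML2 medians lie at -0.39, -0.36 and -0.37, and the parental medians between -0.02 and 0.08.

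In 30 listed genes (56.6%) every HML2 array lay below every parental array, and in 1, Ube2v2, every HML2 array lay above. Among all genes tested these shares were 23.8% and 20.6%. In a fit over all 9361 genes (limma, Benjamini-Hochberg adjusted p below 0.05) 14.9% were called lower and 12.3% higher in HML2. Of the listed genes 20 were called lower and 0 higher (1 higher, Tiam1, when the signal filter was dropped), and without parental replicate 3 the former count was 13. It was 28 when replicate numbers formed a block. As the list was chosen on the same differences, nothing is read from these counts.

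Along the chromosome the running median lay below 0 from end to end. A total of 302 of the 593 genes of chromosome 16 with a symbol of their own passed the signal filter, and the RefSeq gene table of assembly GRCm38.p6 gave their order. The running median over 25 neighbouring genes was below 0 in all 278 windows. It was lowest, -0.64, from Smpd4 to Yeats2, and highest, -0.15, from Abcc1 to Smpd4. The first window, from Zfp263 to Nagpa, stood at -0.60 and the last, from Son to B230307C23Rik, at -0.51.

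**Figure D2:**
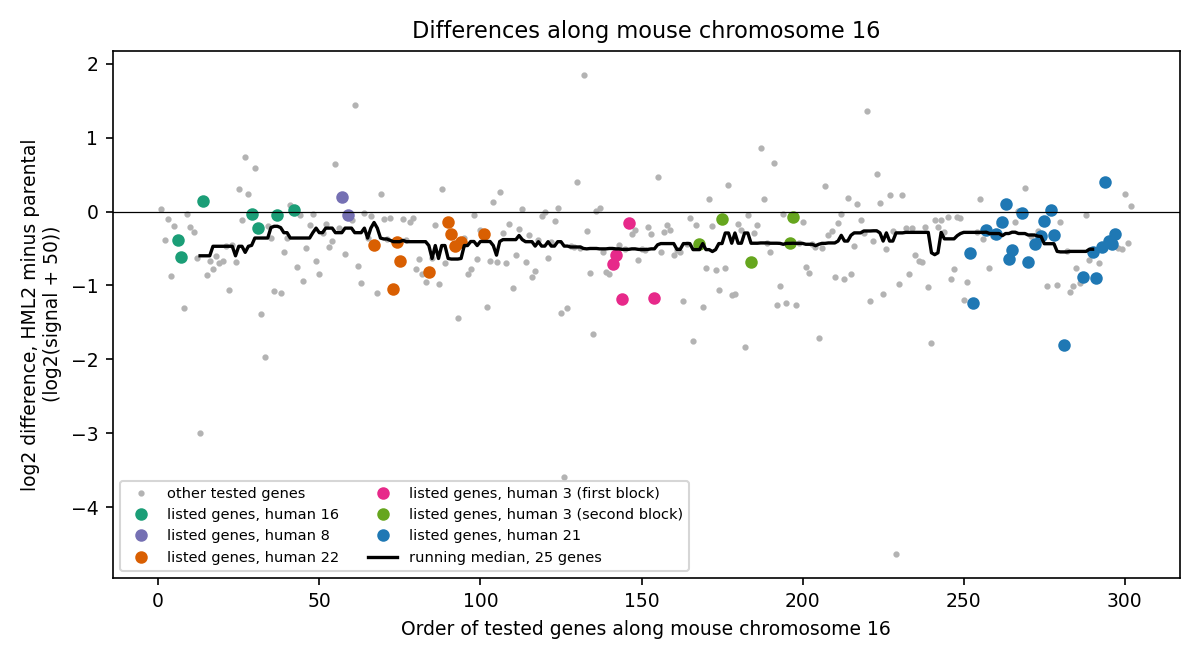
The 302 tested genes of mouse chromosome 16 are placed by their order on the horizontal axis, and their log2(signal + 50) difference, HML2 minus parental, is on the vertical axis. Grey points are other genes, coloured points the listed genes by the human chromosome that holds the matching block, and the line is the running median of 25 genes, which stays between -0.64 and -0.15.

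The listed genes of the block matching human chromosome 16 had a median closer to 0 than their neighbours, a difference that was not tested. Their median was -0.05 over 7 genes, whereas the 42 other tested genes nearest to them in order had a median of -0.48. Crebbp, which encodes a histone acetyltransferase coactivator, had signals of 3318, 2769 and 3091 on parental replicates 1 to 3 and of 2012, 2005 and 1922 on HML2 replicates 1 to 3. The groups did not overlap, and the difference was -0.61 ± 0.12 (SE). Trap1, a mitochondrial HSP90 chaperone gene, was also lower on every HML2 array (-0.39). Litaf, the listed gene of median difference here, which encodes a late endosomal protein, had signals of 5376, 3818 and 3925 on parental replicates 1 to 3 and of 5454, 3650 and 3631 on HML2 replicates 1 to 3. Replicate 1 was the highest array of each group, and the groups overlapped. Usp7 (-0.22), a deubiquitinase that acts on p53 and its regulator, and Pmm2 (-0.04), an enzyme of N-glycosylation, overlapped too. All further Usp7 probe sets that passed the signal bound were below 0 (-0.22 to -0.84), the lowest without overlap, and those of Pmm2 were at -0.01 and 0.23. The median of -0.05 thus rests on the chosen probe sets. Of the further Gspt1 probe sets 3 were at -0.67 to -0.85, and that of Dnaja3 was at 0.25. Next to this block stand Prkdc and Ube2v2, which match human chromosome 8. Prkdc, the catalytic kinase subunit of DNA end joining, had signals of 442, 240 and 315 on parental replicates 1 to 3 and of 454, 271 and 244 on HML2 replicates 1 to 3. Its arrays overlapped, and replicate 1 was again the highest in each group.

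All 10 measured genes of the block matching human chromosome 22 were below 0, with a median of -0.43. Pi4ka, the phosphatidylinositol 4-kinase of the plasma membrane, had signals of 3110, 2387 and 2416 on parental replicates 1 to 3 and of 1511, 1094 and 1167 on HML2 replicates 1 to 3. All HML2 values lay under all parental values, and the difference was -1.04 ± 0.17 (SE). Dgcr2 from the DiGeorge region had signals of 820, 798 and 800 on parental replicates 1 to 3 and of 318, 517 and 500 on HML2 replicates 1 to 3. HML2 replicate 1 was the lowest, but the other 2 HML2 arrays were also below every parental array (-0.82 ± 0.19). Crkl, an adaptor of tyrosine kinase signalling, was at -0.71, -0.60 and -0.70 on HML2 replicates 1 to 3 against the parental mean. Ppm1f, a protein phosphatase gene with a difference next to this median, had signals of 777, 779 and 765 on parental replicates 1 to 3 and of 514, 550 and 589 on HML2 replicates 1 to 3. Snap29, a SNARE of membrane fusion on the other side of the median, had signals of 642, 556 and 719 on parental replicates 1 to 3 and of 426, 480 and 497 on HML2 replicates 1 to 3. Both genes had groups that did not overlap, at -0.46 and -0.41. The mitochondrial thioredoxin reductase gene Txnrd2 (-0.41) and the histone H3.3 chaperone gene Hira (-0.31) did not overlap either. Further Snap29 probe sets that passed the signal bound were at -0.42 and -0.00, and in both the groups overlapped. Dgcr8, the RNA-binding partner of Drosha in microRNA processing, had signals of 644, 1076 and 779 on parental replicates 1 to 3 and of 341, 739 and 755 on HML2 replicates 1 to 3. Only HML2 replicate 1 stood clearly below the parental arrays, so that the difference of -0.46 ± 0.30 became -0.12 when it was left out. The tRNA methyltransferase gene Trmt2a (-0.31) and Ranbp1 (-0.15), which encodes a cofactor of the Ran GTPase, overlapped between groups.

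**Figure D3:**
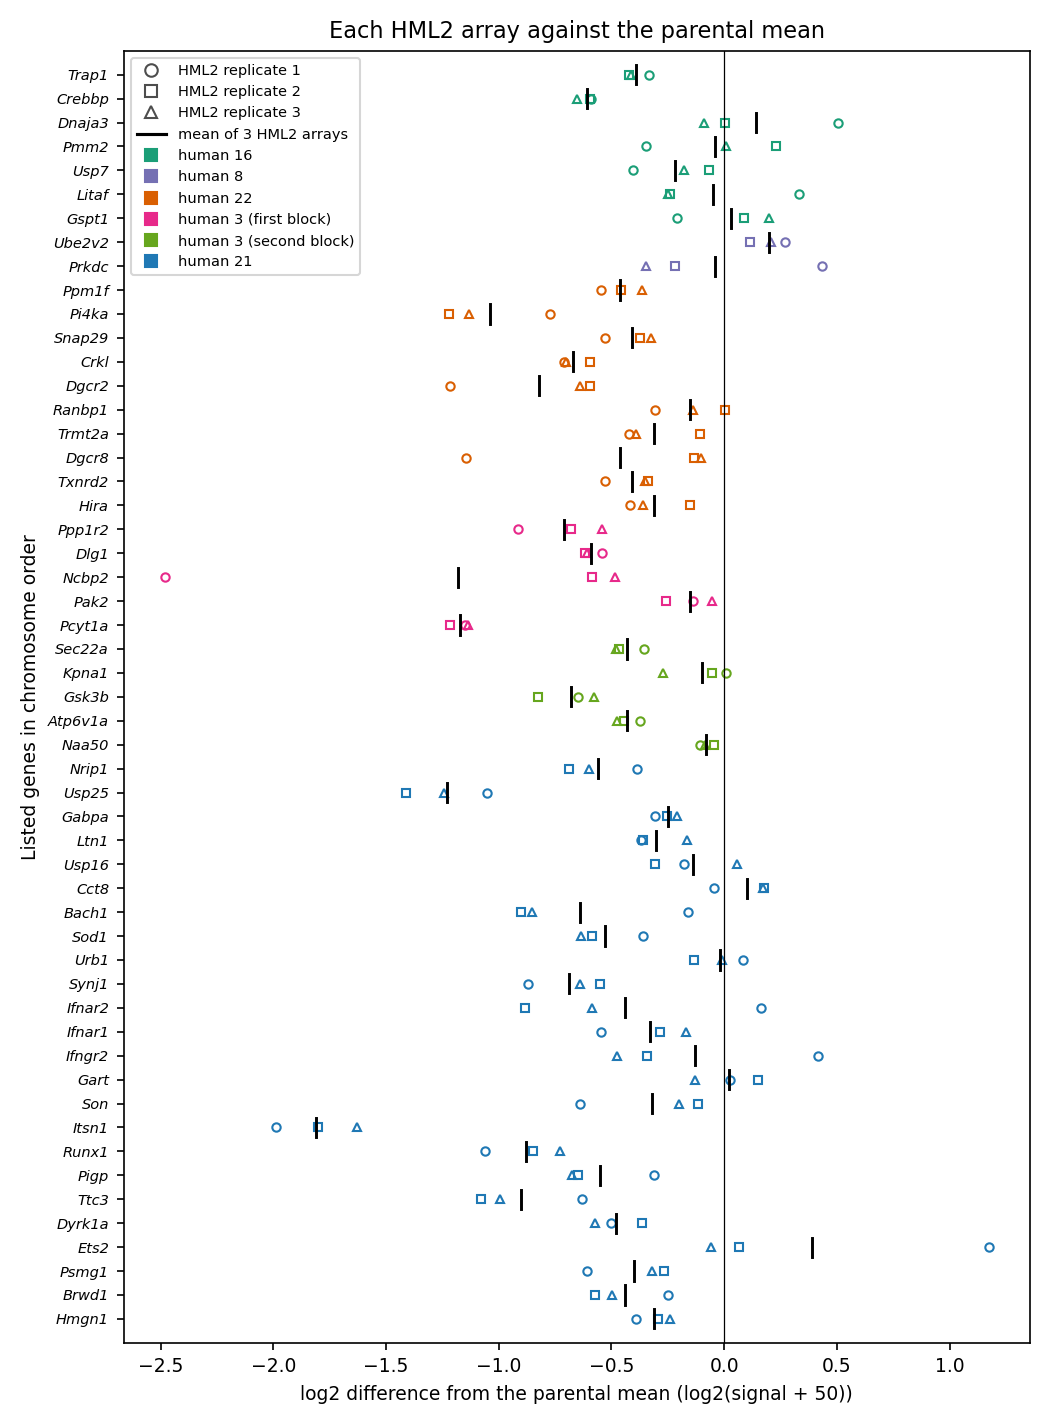
Each row is a listed gene in chromosome order, and each symbol is 1 HML2 array against the parental mean (horizontal axis, log2(signal + 50) difference), coloured by the matching human chromosome, with the mean of the 3 arrays as a bar. Most symbols lie left of 0. Ncbp2, Dgcr8 and Ets2 show HML2 replicate 1 apart from the other arrays.

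Genes matching human chromosome 3 stand in a first and a second block, and all 10 were below 0. In the first, with a median of -0.71, Pcyt1a, the rate-limiting enzyme gene of phosphatidylcholine synthesis, had signals of 1298, 1141 and 1186 on parental replicates 1 to 3 and of 517, 491 and 522 on HML2 replicates 1 to 3. The groups were far apart and the HML2 arrays close together, with a difference of -1.17 ± 0.13 (SE). Ncbp2, the cap-binding subunit of the nuclear cap-binding complex, had signals of 2664, 3348 and 3765 on parental replicates 1 to 3 and of 537, 2130 and 2290 on HML2 replicates 1 to 3. The groups did not overlap, but HML2 replicate 1 was far below the other HML2 arrays, also in both further probe sets (379 and 422), and without it the difference was -0.54 in place of -1.18. Ppp1r2, an inhibitor of protein phosphatase 1 with the median difference among these genes, had signals of 2265, 2730 and 2528 on parental replicates 1 to 3 and of 1301, 1545 and 1705 on HML2 replicates 1 to 3. Its groups did not overlap (-0.71 ± 0.14). The polarity scaffold gene Dlg1 (-0.59) did not overlap either, and the kinase gene Pak2 (-0.15) did.

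The second block had a median of -0.43. Sec22a, a gene of vesicle transport with a difference at this median, had signals of 550, 483 and 490 on parental replicates 1 to 3 and of 385, 353 and 349 on HML2 replicates 1 to 3. All HML2 arrays were lower than all parental arrays (-0.43 ± 0.14). Gsk3b, the kinase that marks beta-catenin for destruction, was at -0.65, -0.82 and -0.58 on the 3 HML2 arrays against the parental mean. Atp6v1a, the catalytic subunit gene of the vesicular proton pump, also at the median, had signals of 3589, 3253 and 2503 on parental replicates 1 to 3 and of 2367, 2252 and 2201 on HML2 replicates 1 to 3. Its groups did not overlap (-0.43 ± 0.15). Naa50 (-0.08), an N-terminal acetyltransferase gene, did not overlap between groups in spite of the small difference of its chosen probe set. Its further probe sets were at -0.52 without overlap and at -0.25 with overlap. The importin gene Kpna1 (-0.10) had overlapping groups, and its further probe sets were at -0.24 to 0.27.

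The block matching human chromosome 21 held 24 of the measured genes, of which 21 were below 0, with a median of -0.42. The largest difference of the list was in Itsn1. Itsn1, the intersectin scaffold of clathrin-mediated endocytosis, had signals of 1875, 1783 and 1954 on parental replicates 1 to 3 and of 434, 500 and 572 on HML2 replicates 1 to 3. Every HML2 array had less than every parental array, and the difference was -1.81 ± 0.14 (SE), with the same sign in the 4 further probe sets of the gene that passed the signal bound (-0.07 to -1.73). Synj1, a phosphoinositide phosphatase that acts on clathrin-coated vesicles, had signals of 994, 806 and 967 on parental replicates 1 to 3 and of 481, 612 and 572 on HML2 replicates 1 to 3. It too had groups that did not overlap (-0.69 ± 0.15). Usp25, a deubiquitinase gene, had signals of 2083, 1426 and 1709 on parental replicates 1 to 3 and of 804, 614 and 699 on HML2 replicates 1 to 3. Its HML2 arrays lay well under the parental ones, at -1.23 ± 0.17. Ttc3, a ubiquitin ligase gene, had signals of 2939, 2342 and 2676 on parental replicates 1 to 3 and of 1688, 1225 and 1301 on HML2 replicates 1 to 3. Runx1, the DNA-binding subunit of core-binding factor, had signals of 895, 853 and 714 on parental replicates 1 to 3 and of 366, 432 and 473 on HML2 replicates 1 to 3. Neither gene had overlapping groups, and the differences were -0.90 ± 0.16 and -0.88 ± 0.16. Further genes without overlap were Sod1 (-0.53), the cytosolic superoxide dismutase gene, Dyrk1a (-0.48), a kinase gene, Nrip1 (-0.56), a corepressor of nuclear receptors, Pigp (-0.55), a subunit gene of GPI anchor synthesis, and Psmg1 (-0.40), a proteasome assembly chaperone gene. Gabpa (-0.25), which encodes the ETS-family subunit of GA-binding protein, had a small difference without overlap, but its further probe set was at 0.18 with overlap. Hmgn1, a nucleosome-binding protein gene, had signals of 22768, 25318 and 24884 on parental replicates 1 to 3 and of 18539, 19797 and 20555 on HML2 replicates 1 to 3. Its probe set had the highest mean signal of the list, and its groups did not overlap either (-0.31 ± 0.08). Psmg1, whose difference, like that of Ifnar2, lies next to the median of these genes, had signals of 2585, 2844 and 2466 on parental replicates 1 to 3 and of 1708, 2178 and 2095 on HML2 replicates 1 to 3. Bach1 (-0.64), Brwd1 (-0.44), Son (-0.32), Ltn1 (-0.30), Usp16 (-0.14) and Urb1 (-0.02) were below 0 with overlapping groups. A further Brwd1 probe set, with a higher mean signal (819 against 687) but a lower mean log2 value, was at -1.72 without overlap. The remaining Brwd1 probe sets that passed the signal bound were at -0.63 and -0.08. Set against the parental array of the same replicate number, the chosen probe sets of Bach1, Brwd1, Son and Ltn1 were lower on all 3 HML2 arrays. Those of Usp16 and Urb1 were not. A further Ltn1 probe set went the other way without overlap (0.32). Its signals were 847, 1034 and 1000 on the parental and 1250, 1154 and 1225 on the HML2 arrays. The remaining Ltn1 probe sets that passed the signal bound were at -0.25 and -0.15.

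The interferon receptor genes stand close together on this block. Ifnar1 and Ifnar2 encode the chains of the type I interferon receptor, and Ifngr2 encodes the signalling chain of the interferon gamma receptor. Ifnar1 had signals of 420, 322 and 355 on parental replicates 1 to 3 and of 233, 290 and 318 on HML2 replicates 1 to 3. All HML2 arrays were below all parental arrays, by a small margin (-0.33 ± 0.17). Ifnar2 had signals of 483, 428 and 325 on parental replicates 1 to 3 and of 462, 198 and 254 on HML2 replicates 1 to 3. Ifngr2 had signals of 457, 354 and 151 on parental replicates 1 to 3 and of 410, 222 and 198 on HML2 replicates 1 to 3. Replicate 1 was the highest array of each group for both genes, and the groups overlapped (-0.44 ± 0.27 and -0.13 ± 0.36). With 1 array left out Ifnar2 lay between -0.73 and -0.21 and Ifngr2 between -0.52 and 0.14, and a second probe set of Ifngr2 was at 0.37. Usp18, an interferon-induced gene on another chromosome, had signals of 1027, 92.7 and 195 on the parental and 1444, 70.4 and 83.9 on the HML2 arrays, and so was also highest on replicate 1 of each group. Its part in the receptor values was not tested.

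Promoters are shown for the listed genes with the lowest and highest differences and for Ifnar1, so that genes from opposite ends of the list can be set side by side. The sequences are the 250 bases before the transcription start, from RefSeq on GRCm38.p6 and on the plus strand, at chr16:91729121-91729370 for Itsn1, chr16:77013819-77014068 for Usp25, chr16:95702157-95702406 for Ets2 and chr16:91484965-91485214 for Ifnar1. Capitals mark every match, on either strand, to CCGGAAG (bound by ETS factors), GGGCGG (bound by Sp factors), ATTGG (the inverted CCAAT box) or TATAAA. Overlapping matches were each counted.
Itsn1: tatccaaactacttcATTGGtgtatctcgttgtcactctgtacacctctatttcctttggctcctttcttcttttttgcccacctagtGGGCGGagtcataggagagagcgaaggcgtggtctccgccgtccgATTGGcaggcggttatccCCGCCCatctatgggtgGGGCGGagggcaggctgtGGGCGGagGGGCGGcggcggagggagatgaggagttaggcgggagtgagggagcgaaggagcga
Usp25: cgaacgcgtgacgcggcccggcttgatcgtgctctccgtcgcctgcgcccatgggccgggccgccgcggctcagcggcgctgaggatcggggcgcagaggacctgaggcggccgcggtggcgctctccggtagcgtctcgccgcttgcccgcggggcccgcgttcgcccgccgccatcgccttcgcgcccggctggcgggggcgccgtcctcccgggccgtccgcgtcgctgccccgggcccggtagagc
Ets2: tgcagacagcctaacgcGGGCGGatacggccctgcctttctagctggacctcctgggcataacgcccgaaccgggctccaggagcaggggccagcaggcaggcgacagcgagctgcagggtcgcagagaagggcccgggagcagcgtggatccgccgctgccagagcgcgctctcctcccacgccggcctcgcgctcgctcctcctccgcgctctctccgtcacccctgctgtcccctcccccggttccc
Ifnar1: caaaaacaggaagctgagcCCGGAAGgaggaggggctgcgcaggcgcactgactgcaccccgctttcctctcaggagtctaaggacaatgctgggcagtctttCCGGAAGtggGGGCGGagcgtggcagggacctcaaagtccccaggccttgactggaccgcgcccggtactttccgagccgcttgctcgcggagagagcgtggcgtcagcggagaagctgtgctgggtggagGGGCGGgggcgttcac

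The Itsn1 sequence holds 5 matches to GGGCGG and 2 to ATTGG, that of Ifnar1 holds 2 matches each to CCGGAAG and GGGCGG, and that of Ets2 holds 1 match to GGGCGG. The Usp25 sequence has none of the 4 motifs and is rich in CpG, with 47 CpG dinucleotides against 17 in Itsn1, 25 in Ets2 and 19 in Ifnar1. RefSeq windows from 250 bases before to 50 after the start were found for 52 listed genes (69 promoters). Of these 20.3% held CCGGAAG, 63.8% GGGCGG, 43.5% ATTGG and 10.1% TATAAA. For the 9840 promoters found for 7689 of the tested genes the shares were 19.5%, 65.2%, 37.7% and 6.85%, and for all 32851 promoters listed by RefSeq 8.86%, 35.7%, 37.4% and 13.6%. The median CpG count was 28 in the listed genes and 21 in those tested genes.

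A difference of 0 or more was found in 6 listed genes: Ets2, Ube2v2, Dnaja3, Cct8, Gspt1 and Gart. Ets2, a transcription factor gene of the ETS family, had signals of 581, 628 and 478 on parental replicates 1 to 3 and of 1324, 587 and 536 on HML2 replicates 1 to 3. HML2 replicate 1 alone was higher than the parental arrays. The difference was 0.39 ± 0.30 with all arrays and 0.00 without that one. Dnaja3, a mitochondrial DnaJ chaperone gene, had signals of 1390, 1460 and 1268 on parental replicates 1 to 3 and of 1967, 1376 and 1284 on HML2 replicates 1 to 3. Here again HML2 replicate 1 was the high array, and without it the difference was -0.04. Cct8, a subunit gene of the CCT chaperonin, had signals of 9145, 10632 and 10281 on parental replicates 1 to 3 and of 9680, 11314 and 11283 on HML2 replicates 1 to 3. Gart, a trifunctional enzyme gene of purine synthesis, had signals of 1754, 2348 and 2034 on parental replicates 1 to 3 and of 2073, 2263 and 1854 on HML2 replicates 1 to 3. Both genes had overlapping groups (0.10 ± 0.11 and 0.02 ± 0.15). The 3 further probe sets of Gart were also above 0, at 0.10 to 0.71.

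Ube2v2 and Gspt1 were at 0 or more only in some of their probe sets. Ube2v2, an inactive ubiquitin-conjugating enzyme variant that works with Ubc13, had signals of 3409, 3804 and 3777 on parental replicates 1 to 3 and of 4420, 3973 and 4228 on HML2 replicates 1 to 3. Every HML2 array was above every parental array (0.20 ± 0.11), yet the further probe sets of the gene that passed the signal bound were at -0.65 and -0.95. Gspt1, the GTPase of translation termination, had signals of 3964, 4782 and 4535 on parental replicates 1 to 3 and of 3810, 4688 and 5073 on HML2 replicates 1 to 3. Its groups overlapped (0.03 ± 0.14), and of 5 further probe sets 3 were below 0, at -0.67 to -0.85. The chosen Gspt1 probe set is of the array maker's _x_at class, whose probes can match other sequences. A further Gspt1 probe set outside that class was about as bright (mean signal 4428) and was at 0.04. Its signals were 3924, 4783 and 4391 on the parental and 3868, 4751 and 4854 on the HML2 arrays. The relative Gspt2 on the X chromosome was higher in HML2 cells (306 ± 33.3 against 652 ± 123, SD, n = 3). Whether Gspt2 reads on either of these Gspt1 probe sets was not tested. Over the list, 39 genes had 90 further probe sets that passed the signal bound. Of those probe sets 76 were below 0, their median was -0.39, and 12 had the sign opposite to the chosen one. In 31 of the 39 genes every probe set had the sign of the chosen one.

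Of the genes without a value by the rule, App, the amyloid precursor gene, had signals of 0.424 to 30.1 in all its 4 probe sets, inside the range of the bacterial control probe sets (1.97 to 36.2) or below it. Tiam1, an activator of the GTPase Rac, had signals of 7.06, 15.8 and 2.15 on the parental and 81.3, 126 and 109 on the HML2 arrays in its brightest probe set. It was thus higher on every HML2 array, and its mean lay under the signal bound.

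The other tested genes of chromosome 16 were mostly lower in HML2 cells as well. Their median difference was -0.43 over 249 genes, and 212 (85.1%) were below 0. Of these genes 104 (41.8%) were called lower and 5 (2.01%) higher, where 14.9% and 12.3% of all genes tested were called. The chromosome itself was chosen with these differences known, so the shares are a description too. The same holds for the calls and adjusted p-values of single chromosome 16 genes below. Without parental replicate 3, 69 were called lower, and the count over all genes was 795 in place of 1395. The 5 higher genes became 3 without any 1 of the parental arrays, 8 without HML2 replicate 1 and 9 when replicate numbers formed a block.

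The genes with the lowest differences on chromosome 16 outside the list were Abi3bp, Masp1 and Vasn. Masp1, a protease of the lectin pathway of complement, went from 969 ± 340 to 34.6 ± 28.3 (SD, n = 3), and Vasn, a membrane protein that binds TGF-beta, from 546 ± 196 to 22.5 ± 11.2. The matrix gene Abi3bp went from 1322 ± 470 to 3.33 ± 3.57. The HML2 means of these 3 lie in the range of the bacterial controls, where the offset of 50 compresses the log2 differences (-3.59, -2.99 and -4.63). As the mean over probe sets Masp1 was at -3.47, Vasn at -2.00 and Abi3bp at -3.72. Emp2 (-1.96), the secreted glycoprotein gene Fstl1 (-1.84), Cldnd1 (-1.78), the myosin light chain kinase gene Mylk (-1.74) and Phldb2 (-1.70) followed. Their adjusted p-values in the limma fit were 0.00016 for Fstl1 to 0.0035 for Emp2.

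The 5 genes that rose were Atp13a4 (1.85), Cebpd (1.44), Nfkbiz (1.36), Pla1a (0.86) and Mettl22 (0.74). Cebpd encodes a transcription factor of the acute-phase response, and Nfkbiz a nuclear regulator of NF-kB target genes. Cebpd had signals of 214, 334 and 322 on the parental and 1737, 585 and 617 on the HML2 arrays. HML2 replicate 1 was the highest, and without it the difference was 0.95. Without parental replicate 1, 2 or 3 the call of Cebpd was lost (1.27, 1.54 and 1.52). Mettl22 passed the threshold narrowly (adjusted p = 0.049 in the limma fit) and no longer did so when any parental array (0.70 to 0.80) or HML2 replicate 1 (0.48) or 3 (0.83) was left out. Nfkbiz was not called as the mean over its probe sets (0.66).

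Chromosome 16 had the lowest median of the 20 chromosomes, -0.42 over its 302 tested genes. The next were chromosome 1 at -0.32 and chromosome 9 at -0.09, and the highest was chromosome 3 at 0.20. On chromosome 16, 41.1% of genes were called lower and 1.66% higher, and on chromosome 1 34.7% and 4.03%. No test of chromosomes against each other was made. Chromosome 16 was followed because its genes were lower together, so its place in this order is a description.

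**Figure D4:**
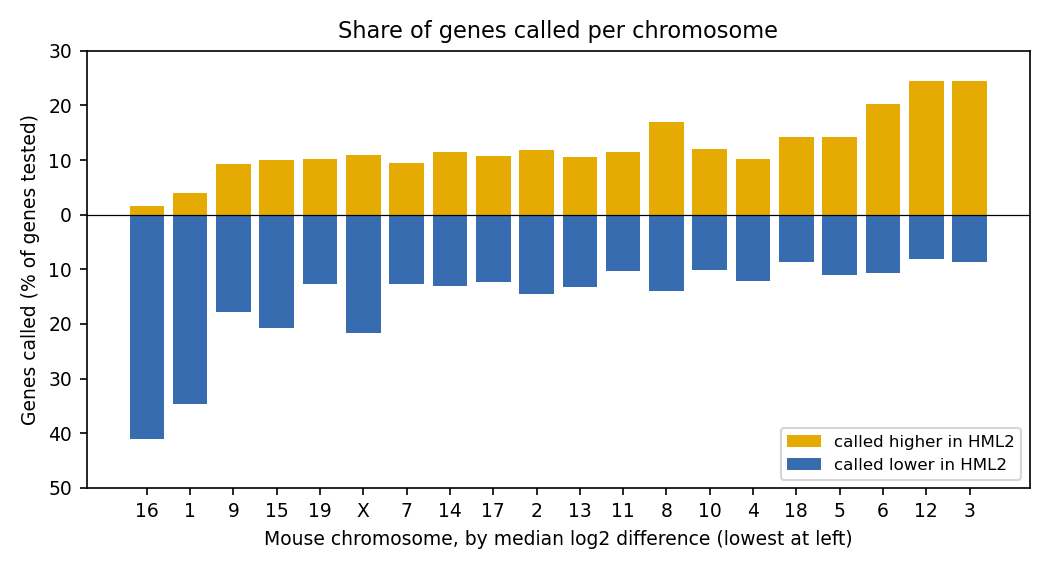
Bars give the share of tested genes called higher (above 0) or lower (below 0) in HML2 cells on each mouse chromosome, in percent, ordered by median log2 difference. Chromosome 16, at the left, has 41.1% called lower and 1.66% called higher.

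Many listed genes encode parts of complexes whose other parts are encoded elsewhere. From general knowledge 122 partners on other chromosomes were listed in 18 complexes or pathways, of which 109 were tested. The partners had a median difference of 0.12, and 44 were below 0. Of them 14 were called higher and 9 lower (12.8% and 8.26%, beside 12.3% and 14.9% of all genes, or 1155 and 1395 genes). With replicate numbers as a block the partner counts were 25 and 12, and those over all genes 1670 and 1831. Without parental replicate 1 they were 8 and 5 beside 780 and 948 over all genes. Without parental replicate 3 they were 9 and 4 beside 590 and 795. Without HML2 replicate 1 they were 23 and 12 beside 1577 and 1845, and without HML2 replicate 3 8 and 5 beside 715 and 956. In all 17 groups with a measured listed gene the median of the listed genes lay below that of their partners. The listed genes come from a chromosome chosen for its lower genes, and the partners from other chromosomes. This order thus largely follows from the choice. It was not tested, and nothing is read from it.

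**Figure D5:**
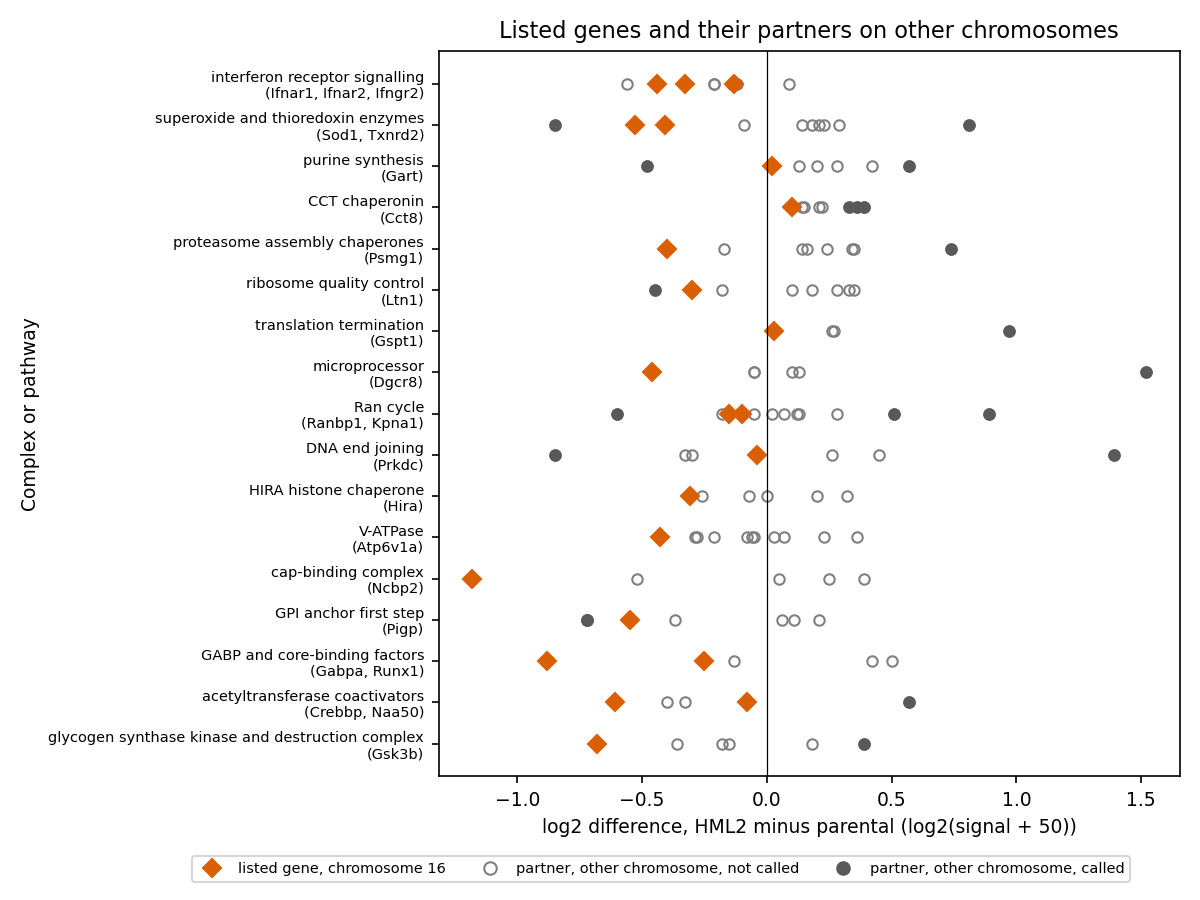
Each row is a complex or pathway. Diamonds are listed genes, circles their partners on other chromosomes, and filled circles the partners called by limma, with the log2(signal + 50) difference, HML2 minus parental, on the horizontal axis. In all 17 rows the median of the diamonds is left of the median of the circles, an order that largely follows from how both were chosen.

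In the CCT chaperonin, all 7 partners of Cct8 were above 0, with a median of 0.22, and Cct8 itself was at 0.10. Around Gart the other purine synthesis genes had a median of 0.24. Psmg1 was at -0.40, and its 7 proteasome assembly partners, of which Psmd9 rose (0.74), had a median of 0.24. Partner medians were above 0 in 10 of the 18 groups. The lowest were -0.36 for APP processing, -0.20 for acetyltransferase coactivators and -0.15 for GPI anchor synthesis and for the Gsk3b group. Dgcr8 was at -0.46, but at -0.12 without HML2 replicate 1. Its partner Dicer1, the enzyme of the later step of microRNA processing, rose from 262 ± 21.8 to 851 ± 135 (SD, n = 3). The Dicer1 difference was 1.52, or 0.77 as the mean over its probe sets. The other tested partners of Dgcr8 were at -0.05 to 0.13 and were not called. Cytosolic Sod1 (-0.53) and its copper chaperone Ccs (-0.85) were lower, while the mitochondrial dismutase gene Sod2 (0.81) rose. Xrcc5, a partner of Prkdc that binds DNA ends, rose from 120 ± 11.3 to 398 ± 39.3. Rcc1 (0.89) and Kpna4 (0.51) of the Ran cycle and Gspt2 (0.97) rose, and Adam10 (-1.01), which cleaves App protein, Pigyl (-0.72) and Kpnb1 (-0.60) fell. Kpnb1 was at 0.30 as the mean over its probe sets. These 11 partners kept their calls whichever array was left out, and their adjusted p-values in the limma fit were 0.00046 for Dicer1 to 0.011 for Kpna4. The other 12 calls were each lost without at least 1 array. Higher among them were Psenen (0.36), Prps1 (0.57), Cct3 (0.39), Cct4 (0.36, or -0.16 as the mean over probe sets), Cct6a (0.33), Naa15 (0.57) and Csnk1a1 (0.39). Lower were Bace1 (-0.65), Atic (-0.48), Ankzf1 (-0.45), Nhej1 (-0.85) and Pigh (-0.72). Atic, Ankzf1 and Nhej1 lie on chromosome 1, where 34.7% of tested genes were called lower. Xrcc5, which rose, lies there too. Cct3, Kpna4 and Naa15 lie on chromosome 3, where 24.4% were called higher. The part of these chromosomes in the calls was not tested. Of 7 tested genes of interferon receptor signalling on other chromosomes 0 were called, beside 12.3% higher and 14.9% lower of all genes. Their median was -0.14, beside -0.33 for the receptor genes, and 6 were below 0. Jak2 was the lowest, at -0.56 without overlap between groups, and narrowly missed the threshold (adjusted p = 0.053 in the limma fit).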

How the data were processed

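Messenger RNA of 3 parental and 3 HML2 cultures was hybridised to Mouse Genome 430 2.0 arrays from 15 ug of total RNA. The authors deposited intensities on a linear scale, which MAS5 had computed per the submitters' processing notes (its version was not stated). The 45101 probe sets were named by a 2016 array annotation (34945 with 1 symbol, 932 with several, 9160 not listed, 64 controls), and 34741 of those with 1 symbol were found in the RefSeq table of GRCm38.p6, used for names and gene order. Low signals are noisy, hence the offset of 50 and the bound of 100 on the mean signal.

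HML2 and parental values on the log2(signal + 50) scale entered limma 3.58.1 (R 4.3.3, lmFit, eBayes with trend, no covariate), with Benjamini-Hochberg adjustment over 9361 genes and calls below 0.05. The fit was tested on simulated data. The listed genes, their blocks, the partner lists and the rules for naming genes were chosen with earlier results of these data known. Values by array are given for the 10 lowest listed genes, those at 0 or more, the interferon receptors and the genes at the median difference of each block. Outside the list the rule took up to 8 chromosome 16 genes in each direction that were called, had no overlap between groups and had a mean of at least 250 in the brighter group. Every called partner is named. Other members, further probe sets, Usp18 and Jak2 were named after their values were seen.

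Arrays with the same replicate number deviated together from their group means (correlations across genes of 0.45, 0.34 and 0.24, all above 0.1), though parental replicate 2 and HML2 replicate 3 also reached 0.24. The labels do not say what the number stands for, so it entered only as a block in an alternative. Other alternatives were the offset, the signal bound, the scaling, the mean over probe sets and leaving out each array.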

Additional observations from a re-analysis of the deposited data

How the results depend on the processing

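The median difference of the listed genes stayed below 0 under every alternative run: -0.43 with an offset of 16, -0.38 with an offset of 100, -0.36 with median centring, -0.37 with quantile normalization, -0.37 as the mean over probe sets and -0.42 to -0.35 with 1 array left out. With the replicate block it was again -0.41, with 47 listed genes below 0. Each replicate number occurs once in each group, so the block could not change these values. Listed genes called lower numbered 13 to 25 with 1 array left out and 28 with the replicate block, and without the signal filter 1 was called higher. For the other chromosome 16 genes the median was -0.16 without the filter, -0.38 with median centring and -0.44 to -0.37 with 1 array left out. Their calls numbered 69 to 129 lower and 3 to 8 higher with 1 array left out, 8 higher without the filter and 9 higher with the replicate block. Partner calls numbered 9 higher and 5 lower without the filter, 8 to 23 higher and 4 to 12 lower with 1 array left out, and 25 higher with the replicate block. Over all genes 590 to 1577 were called higher and 795 to 1845 lower with 1 array left out, the lowest counts without parental replicate 3. With the replicate block these counts were 1670 and 1831, and without the filter 923 and 1241. As the mean over probe sets Cct4 was at -0.16 and Kpnb1 at 0.30. The cause of these changes was not tested. The replicate block moved no other count by more than 1.5 times. In 8 listed genes (Dnaja3, Pmm2, Litaf, Gspt1, Prkdc, Urb1, Ifngr2 and Gart) the sign changed when 1 array was left out.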
